A study of Mus musculus with 4 samples.

Results

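The 7 maternally methylated germline differentially methylated regions (DMRs) described here lie in imprinted loci. They are named after the protein-coding genes Peg3, Plagl1 (Zac1), Impact, Mest, Peg10, Grb10 and Gpr1. A binding site of the zinc finger protein ZFP57 was taken as a member when its deposited annotation named 1 of these genes or when it overlapped the DMR of that gene by at least 1 bp on mm9. Both criteria picked the same 11 of the 158 sites in the table, 3 at Mest, 2 each at Peg3 and Impact, and 1 at each of the other 4. ZFP57 ChIP-seq was done in hybrid mouse embryonic stem (ES) cells from reciprocal crosses, with a C57BL/6J (BL6) mother and a Cast/EiJ (Cast) father in BC and the reverse in CB. Each cross was represented by 1 cell line, with 1 ChIP library made with an anti-Zfp57 antibody and 1 input library. No sequencing value therefore has a replicate library. Both lines were grown in N2B27 medium with 500 U/ml LIF, 1 µM PD0325901 and 3 µM CHIR99021, inhibitors that keep ES cells in the ground state of pluripotency. The input libraries entered the authors' peak calls, and their reads per site were not analysed here. Allele-specific reads in all 158 sites numbered 10541 in BC and 5904 in CB. The member sites held 605 of these in BC (5.74%) and 270 in CB (4.57%). The CB library was not the shallower one. By the paper's summary of alignments, its ChIP library had more aligned reads than that of BC, both common and strain-specific.

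Imprinted genes are expressed from the chromosome of a single parent. Their germline DMRs receive DNA methylation in the egg or the sperm, and the mark must outlast the wave of demethylation in the early embryo. ZFP57 binds the hexamer TGCCGC when the CpG in it is methylated, and recruits KAP1 (TRIM28) with enzymes that keep methylation and repressive histone marks in place. A SNP between BL6 and Cast lets a read be assigned to a parent, the BL6 allele being maternal in BC and the Cast allele in CB. A read of the maternal allele at these DMRs therefore comes from the chromosome that was methylated in the oocyte. Whether that methylation was kept in these cell lines was not examined here.

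Every member site held at least 1 TGCCGC hexamer. The sequences show where the hexamer sits. All are from the plus strand of mm9, in lower case. Capitals mark the 7 bases of TGCCGCN, or of its reverse complement NGCGGCA, where the hexamer lies wholly inside the site. The first 4 are whole sites outside annotated UTRs. They are shown because 3 of them carry a lone hexamer close to the middle of the site and the fourth, at Peg3, carries a pair that face each other.
Peg3 site 2, chr7:6682828-6682940: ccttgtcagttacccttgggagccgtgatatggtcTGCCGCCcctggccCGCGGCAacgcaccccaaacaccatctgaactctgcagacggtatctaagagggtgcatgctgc
Mest site 1, chr6:30687379-30687480: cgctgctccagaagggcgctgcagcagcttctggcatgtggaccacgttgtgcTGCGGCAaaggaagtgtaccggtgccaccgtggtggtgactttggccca
Mest site 3, chr6:30688739-30688860: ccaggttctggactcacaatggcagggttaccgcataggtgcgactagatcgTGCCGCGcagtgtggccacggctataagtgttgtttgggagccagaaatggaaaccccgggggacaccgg
Peg10, chr6:4697871-4697980: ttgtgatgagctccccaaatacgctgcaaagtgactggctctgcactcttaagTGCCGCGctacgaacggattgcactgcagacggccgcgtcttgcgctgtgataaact

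At the other sites printed here only the hexamers and their surroundings are given, since these sites are longer or lie in an annotated UTR. The runs at Peg3 site 1, Plagl1 and Mest site 2 have 11 bases on each side of a motif. The run at the start of Mest site 2 also holds a hexamer in lower case, directly before the capitals, that straddles the start of the site and was not counted in it. The Grb10 pair, with 14 bases between its motifs, and the Gpr1 cluster, with 12 and 21, are shown as 1 run each.
Peg3 site 1, chr7:6681985-6682013: ggcagcattcgTGCGGCAaactaagactg
Peg3 site 1, chr7:6682160-6682188: agcggcgcctgCGCGGCAaatccgcggtc
Plagl1, chr10:12810536-12810564: ctggcgtgttgCGCGGCAaagcccacggc
Plagl1, chr10:12810859-12810887: tggcatagccgTGCCGCGacgggatgggt
Plagl1, chr10:12810877-12810905: acgggatgggtTGCCGCGctgagcgcaga
Mest site 2, chr6:30688172-30688200: tctgctgccgcTGCCGCGggccgccctgc
Mest site 2, chr6:30688277-30688305: atcctgcggcgGGCGGCAtgggataatgc
Grb10, chr11:11926111-11926139: acgggccaacaCGCGGCAacacgcgccaa
Grb10, chr11:11926228-11926255: TGCCGCTcagagacgaatgatCGCGGCA
Gpr1, chr1:63246766-63246841: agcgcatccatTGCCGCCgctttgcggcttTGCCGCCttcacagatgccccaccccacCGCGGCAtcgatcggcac

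The 11 sites held 21 motifs, counted on both strands of mm9 with the 6 bases inside the site, and this recount equalled the deposited number at each of the 11. The seventh base was a purine in 16 of the 21 (76.2%), against 79.9% of the 229 motifs in all 158 sites. It was G in 11 member motifs (52.4%) and A in 5 (23.8%), whereas across all sites G made up 36.7% and A 43.2%. With G as the seventh base the motif gains a second CpG, as in TGCCGCG. All 3 Plagl1 motifs and the Peg10 motif were of this form. At least 1 purine motif was present in every member site. Gpr1 was the member with more pyrimidine than purine motifs, 2 against 1. By the deposited counts, 7 of the 11 member sites (63.6%) held at least 2 motifs, against 59 of the 132 sites with a count for a single genome (44.7%). These shares were not adjusted for site length. At least 1 was counted in all 11 and in 108 of those 132 (81.8%). In windows with the length of each member site, centred on 22339 start sites of protein-coding genes in GENCODE M1, the share with TGCCGC on either strand ranged from 7.14% for 102 bp to 24.1% for 468 bp. In RefSeq promoters of 300 bases on GRCm38.p6, 3813 of 32851 held it (11.6%). For 5 of the 7 genes 9 promoters were matched there by symbol, and 4 of these held the hexamer. The counts were 2 of 3 for Mest, 1 of 2 for Grb10, 1 of 1 for Plagl1, 0 of 2 for Gpr1 and 0 of 1 for Peg3. By the methods the authors also passed over peaks that had no binding motif, although 24 of the 132 sites have a deposited count of 0. How far this choice raised the motif counts in listed sites, members included, was not tested. The shares in windows and promoters describe how common the letters are.

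Where the motif sat differed among the members. The median distance of a motif from the middle of its site was 58.5 bp over the members and 20 bp over all sites. These distances were not scaled to site length, which allows larger ones in longer sites. The median site length was 142 bp over the members and 123.5 bp over all sites. At Mest site 1, Mest site 3, Peg10 and Impact site 2, the lone motif was centred within 5.5 bp of the middle of the site. The Plagl1 motifs lay 138 to 186 bp from the middle of a site of 468 bp, and the 3 Gpr1 motifs fell in its first 91 of 361 bases. Close pairs were present at Peg3 site 2, with 7 bases between the motifs, Plagl1 with 11, Gpr1 with 12 and Grb10 with 14. The facing pair at Peg3 site 2 and that at Grb10 have their motifs on opposite strands, and the pairs at Plagl1 and Gpr1 on the same strand.

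Across the 7 DMRs, 41 motifs were found in 20376 bp. The sites covered 11.5% of this length and held 21 of the motifs (51.2%), which makes 8.96 motifs per kb inside the sites and 1.11 per kb outside. The part that the authors' choice of peaks by motif has in this difference was not tested. Of the other 20, 18 lay clear of any listed site, and 2 straddled the edge of one, at Mest site 2 and at Grb10. At Mest 8 of 12 motifs were not wholly inside the 3 sites, at Peg3 4 of 8 and at Plagl1 3 of 6, whereas the Gpr1 DMR, the shortest at 644 bp, had all 3 of its motifs inside the site. Of the purine motifs in the DMRs, 16 of 33 (48.5%) were in a site, and of the pyrimidine motifs 5 of 8 (62.5%). A hexamer inside one of these DMRs was thus not always within a listed site.

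**Figure D1:**
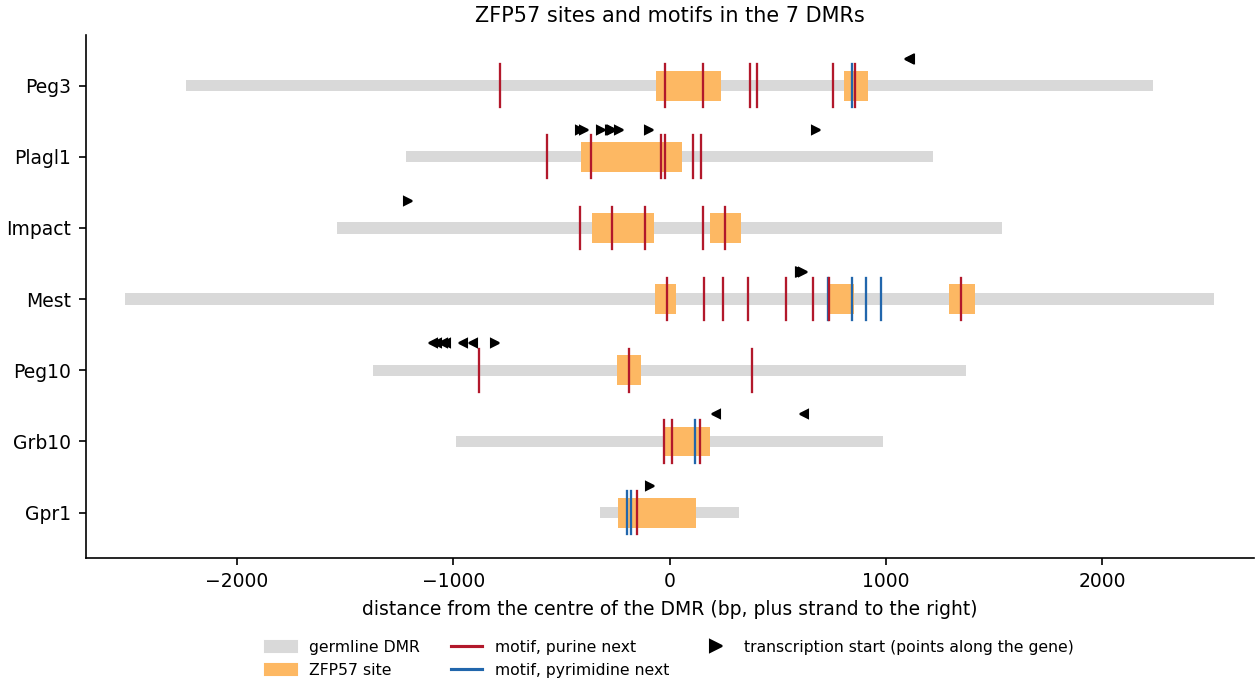
ZFP57 sites (orange) and TGCCGC motifs (vertical lines, red with a purine and blue with a pyrimidine as seventh base) in the 7 DMRs (grey), against the distance in bp from the centre of each DMR on mm9, with GENCODE M1 transcription starts as triangles. Of the 41 motifs 21 lie wholly within the sites, and of the 12 at Mest 8 do not, counting the one that straddles the start of site 2.

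These regions were grouped here as promoter DMRs, and the deposited feature was a promoter at 6 of the 11 sites (54.5%, against 13.9% of all 158). The promoter was defined by the authors as 1.5 kb before to 0.5 kb after a transcription start. The other 5 sites, Peg3 site 1, Mest site 3, both Impact sites and Gpr1, were placed in an intron. Most of these still lay close to a start. By GENCODE M1, 118 of the 122 bases of Mest site 3 were in an exon of a Mest transcript. That site was 676 bp and Peg3 site 1 870 bp downstream of the nearest start of its gene. No start of Gpr1 itself was near its site, which lay 14017 bp downstream of it. That site covered the start of the lincRNA transcript Gm11607, on the opposite strand to Gpr1, and 214 of its bases were in an exon of that transcript. The paper links this DMR to a noncoding isoform of Zdbf2 (Zdbf2linc or Liz), paternally expressed in extra-embryonic tissues, and not to a promoter of Gpr1. At Peg10, the site was 565 bp downstream of the Peg10 start, outside the promoter limit for this gene and inside that for Sgce, the neighbour transcribed in the other direction. Mest site 2 and the Grb10 site lay wholly in 5′ UTR exons of a transcript starting 116 bp and 27 bp away, and the Plagl1 site spanned several starts, with 237 bases in a UTR. No member site overlapped coding sequence. The authors' limits applied to GENCODE M1 starts gave 7 of 11, Gpr1 being added through Gm11607. Counting sites within 1 kb of any GENCODE M1 start gave 10, with Impact site 2 as the exception.

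The base composition of the member sites was close to that of the whole list. Median GC content was 61.3% over the members and 61.6% over all sites, and the median number of CpG dinucleotides per 100 bp was 6.92 and 6.20. Within the members CpG density ran from 5.31 per 100 bp at Peg3 site 2 to 16.4 at Mest site 2, the highest of all 158 sites. The length of the member sites ran from 102 to 468 bp, and its median was 142 bp against 123.5 bp over the table.

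The question of which parental chromosome carried ZFP57 was addressed by counting allele-specific reads. Pooled over the crosses, most reads were maternal at every DMR where a read could be assigned. In all, 817 of 875 reads (93.4%, 95% Wilson interval 91.5 to 94.8%) came from the maternal allele. In CB alone the share at Grb10 was 60.0% (35.7 to 80.2%), an interval that spans an even share. A site was called maternal-specific when a two-sided Fisher's exact test of BL6 and Cast reads by cross gave p under 0.0001, with the strain test not smaller. By this rule 8 of the 9 member sites with reads were called, against 21.6% of the 116 sites with reads in the table. Mest site 1 and Peg10 had no allele-specific read, and the deposited SNP number in both was 0. All such tests compare those libraries, not the conditions. Reads that are PCR duplicates do not stand for separate molecules, so the intervals and limits given cover counting error and nothing else.

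Peg3 and Plagl1 encode zinc finger proteins and are expressed from the paternal chromosome. At Peg3 site 2 (promoter), 74 of 79 BC reads carried the BL6 allele and 28 of 32 CB reads the Cast allele, so the majority allele changed strain with the cross. Fisher's exact test gave p = 4.56e-17 (3.53e-16 after Benjamini-Hochberg adjustment over the 116 sites). At Peg3 site 1 (chr7:6681959-6682260, intron) no paternal read was found among 24 in BC and 28 in CB (Fisher's exact p = 2.35e-15), and a count of 0 in 52 reads leaves room for a paternal share of 5.77% at most. Peg3 site 1 was thus the one member site with over 20 reads in each cross and no paternal read. Plagl1 (chr10:12810502-12810969) had 69 of its 70 BC reads from BL6 and 43 of its 45 CB reads from Cast (Fisher's exact p = 5.36e-28). Its maternal share, 97.4% (92.6 to 99.1%), was the highest of the DMRs with more than 100 reads.

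Mest, which encodes a protein of the hydrolase fold family, is also expressed from the paternal chromosome. Mest site 2 (chr6:30688179-30688300, promoter) had the BL6 allele in 95 of 106 BC reads and the Cast allele in 41 of 43 CB reads (Fisher's exact p = 5.14e-24). Mest site 3, an intron site by the deposited feature, had 3 BL6 reads in BC and 9 Cast reads in CB, all maternal. With 12 reads its p of 0.00455 was the lowest that this depth allows in the exact test, and it was not called. Its adjusted p was 0.0176, so at an adjusted limit of 0.05 all 9 sites with reads were maternal-specific, against 27 of the 116 in the table (23.3%).

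Grb10 encodes an adaptor protein that binds insulin and growth factor receptors, and Gpr1 a receptor of the protein ligand chemerin. At Grb10 (chr11:11926087-11926300, promoter) 79 of 85 BC reads were BL6, whereas 9 of 15 CB reads were Cast. Its p of 9.04e-06 was the largest among the called members, although its depth allowed one of 3.95e-18. The Gpr1 site (chr1:63246740-63247100, intron, in a SINE-bearing region by the deposited repeat column) had 9 reads in BC, all BL6, and 20 in CB, of which 19 were Cast (Fisher's exact p = 9.99e-07). Gpr1 had the fewest reads of the called members, 29, and its 96.6% maternal share has an interval of 82.8 to 99.4%.

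Impact encodes a regulator of translation that acts through the GCN2 kinase pathway, and it too is expressed from the paternal chromosome. Both of its sites lay in an intron on chromosome 18, 850 and 1398 bp downstream of the start. The first (13131611 to 13131899) had the most reads of any member, with BL6 in 153 of 164 in BC and Cast in 58 of 62 in CB (Fisher's exact p = 1.62e-37). The second (13132159 to 13132300) had BL6 in 60 of 65 BC reads, and all 16 CB reads were Cast (Fisher's exact p = 6.06e-13). Their maternal shares, 93.4% (89.3 to 95.9%) and 93.8% (86.4 to 97.3%), were nearly equal. The deposited motif counts were 2 TGCCGCR at the first site and 1 at the second, with no TGCCGCY.

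**Figure D2:**
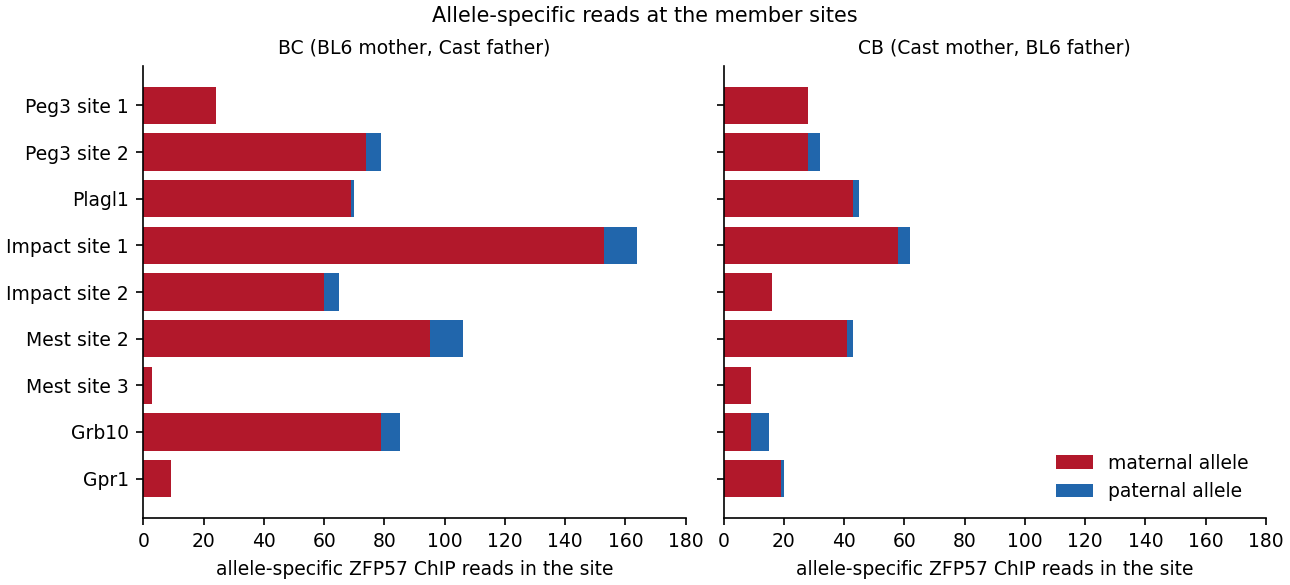
Allele-specific ZFP57 ChIP reads per member site (horizontal axis, number of reads) in BC (left) and CB (right), split into maternal (red) and paternal (blue) alleles, for the 9 sites with reads. The maternal allele has more reads at all 9 sites in both crosses, with the smallest margins at Grb10 in CB, 9 against 6, and Mest site 3 in BC, 3 against 0.

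The DMRs were then compared with each other by maternal share. In order, the share pooled over the crosses was 97.4% at Plagl1, 96.6% at Gpr1, 94.5% (89.8 to 97.1%) at Peg3, 93.5% (90.2 to 95.7%) at Impact, 91.9% (86.7 to 95.2%) at Mest and 88.0% (80.2 to 93.0%) at Grb10. The order was not the same in each cross. In BC reads Gpr1 was highest, with 100% of 9 reads, and Mest lowest at 89.9% (82.8 to 94.3%), below Grb10 at 92.9%. In CB reads Mest was highest at 96.2% (87.0 to 98.9%) and Grb10 lowest at 60.0%. None of the 15 pairs differed after Benjamini-Hochberg adjustment over the pairs (two-sided Fisher's exact tests on pooled reads), and 1 had an unadjusted p under 0.05. That pair was Plagl1 and Grb10, the highest and lowest pooled shares, with a difference of 9.39 percentage points (2.47 to 17.4 by the Newcombe method; Fisher's exact p = 0.0131, adjusted p = 0.197). Neighbours in the order could not be told apart at this depth. For Peg3 and Impact the difference was 0.993 points, with an interval from -4.17 to 5.21. In CB reads alone 4 pairs passed, each of them Grb10 against another DMR, with adjusted p from 0.00802 to 0.0121 (Fisher's exact tests). The pair of Grb10 and Gpr1 did not, at an adjusted p of 0.0821. The 4 pairs share the same 15 CB reads of Grb10 and are not separate observations. In BC reads alone 0 pairs passed. The smallest exact p there was 0.0298, for Plagl1 and Mest (adjusted p = 0.447), and Plagl1 and Grb10 had an exact p of 0.129 (adjusted p = 0.675).

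Sites of the same DMR were compared in the same way, with adjustment over the 8 DMRs of the table that had reads at 2 or more sites. None of the 8 passed, the 3 member DMRs among them, and no member DMR had an unadjusted p under 0.05. The gap was widest at Mest, where the share at site 2 minus that at site 3 was -8.72 points, and with 12 reads at site 3 the interval ran from -14.4 to 15.8 (Fisher's exact p = 0.601). At Peg3, site 1 was 8.11 points above site 2 (0.257 to 14.7; Fisher's exact p = 0.0586, adjusted p = 0.469). At Impact the sites differed by less than 1 point (Fisher's exact p = 1, interval from -5.80 to 7.44).

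The maternal share was next compared between the BC and CB libraries. Strain of the maternal chromosome, cell line and library cannot be told apart in this comparison. Of the 9 member sites with reads, Grb10 differed after adjustment over all 116 sites. Among all 116 sites, 42 (36.2%) differed between the crosses by this test, which includes the sites where binding follows the strain and not the parent. At Grb10 92.9% (85.4 to 96.7%) of 85 reads were maternal in BC and 60.0% (35.7 to 80.2%) of 15 in CB. The difference was 32.9 points (11.4 to 57.5; Fisher's exact p = 0.00230, adjusted p = 0.00762), and it rests on the 15 reads of CB. With every read count halved, the adjusted p was 0.106. The paternal count was 6 in both crosses, and the maternal count was 79 in BC and 9 in CB, a ratio of 8.78. Over the other 8 sites the maternal reads numbered 487 and 242, a ratio of 2.01, and the paternal reads 33 and 13, a ratio of 2.54. At these sites 94.9% (91.5 to 97.0%) of the CB reads were maternal. Among them the difference between the crosses ran from -7.69 points at Impact site 2 to 6.17 at Peg3 site 2, and each interval spanned 0.

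**Figure D3:**
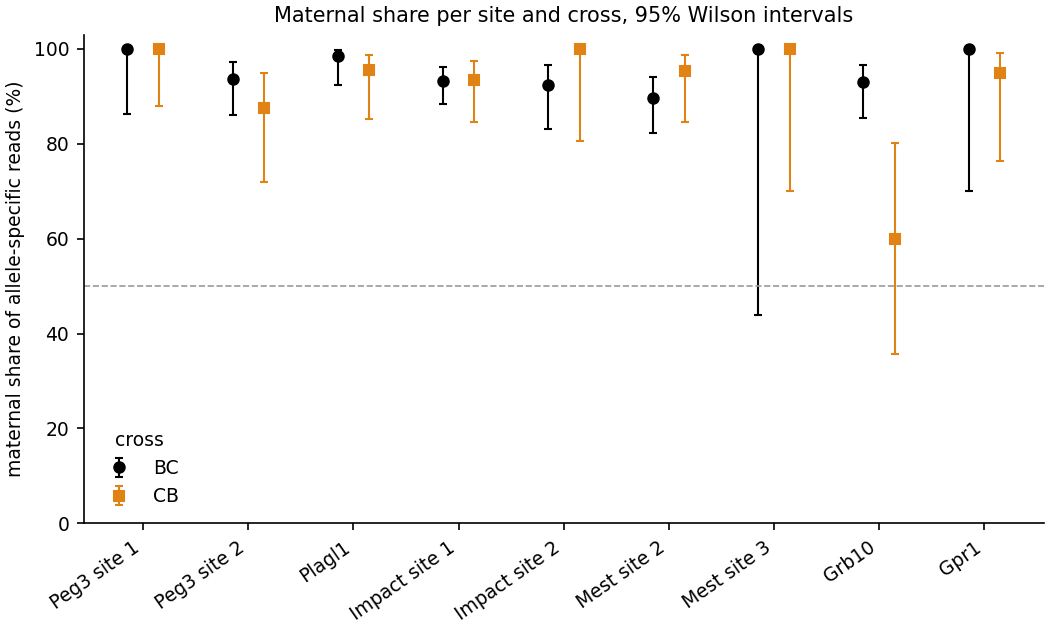
Maternal share of allele-specific reads in percent (vertical axis) per member site in BC (black circles) and CB (orange squares), with 95% Wilson intervals as bars and a dashed line at 50%. Grb10 in CB, at 60.0%, is the lowest point, and the wide bar of Mest site 3 in BC comes from 3 reads.

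Read density, given as a score normalised by the authors for site length and aligned reads, was compared next. Its median was 172 in BC and 50 in CB over the members, and 107 and 38.5 over all sites. Mest site 2 had the highest BC density of all 158 sites, 304, followed among the members by Impact site 2 with 253, Grb10 with 244, Peg3 site 2 with 184 and Plagl1 with 180. In CB, Mest site 2 had 89, Peg10 73, Mest site 1 65, Impact site 1 55 and Impact site 2 51, and Plagl1 and Peg3 site 2 had 50 each. Grb10 fell from place 13 in BC to place 97 in CB. The mean percentile rank among the authors' candidate peaks was 99 or above at 9 of the 11 members (81.8%) and at 141 of all 158 sites (89.2%). The exceptions were Peg3 site 1, with 98.36 in BC and 99.44 in CB, and Gpr1, with 2.31 and 78.37. In the deposited ChIP-qPCR column, 39 of the 158 sites hold a question mark character and the others are empty. The heading of that column asks whether the site passed ChIP-qPCR, and the character was read here as a mark that it did. The heading does not explain the character itself. Of the 11 members 4 carried it, Gpr1, Peg3 site 2, Plagl1 and Grb10.

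Density was higher in BC at 10 of the 11 member sites (90.9%), as it was at 152 of all 158 sites (96.2%). It was at least 2-fold higher in BC at 7 members, a fold reached by 73.4% of all sites. Over the members the BC density was a median of 3.13 times the CB density, and over all sites 2.79 times. Grb10 had the largest ratio of the members, 7.63 (244 against 32), and ranked 5 of 158. Impact site 2 followed with 4.96. The smallest ratio of the table, 0.556, was that of Gpr1, with densities of 5 and 9. Within Mest, the ratio was 3.42 at site 2, 1.89 at site 1 and 1.65 at site 3, and within Peg3 it was 3.68 at site 2 and 1.72 at site 1. Allele-specific reads numbered 79 in BC and 32 in CB at Peg3 site 2, and 24 and 28 at Peg3 site 1. With 1 library per cross, a difference between the crosses and a difference between the 2 immunoprecipitations cannot be told apart.

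**Figure D4:**
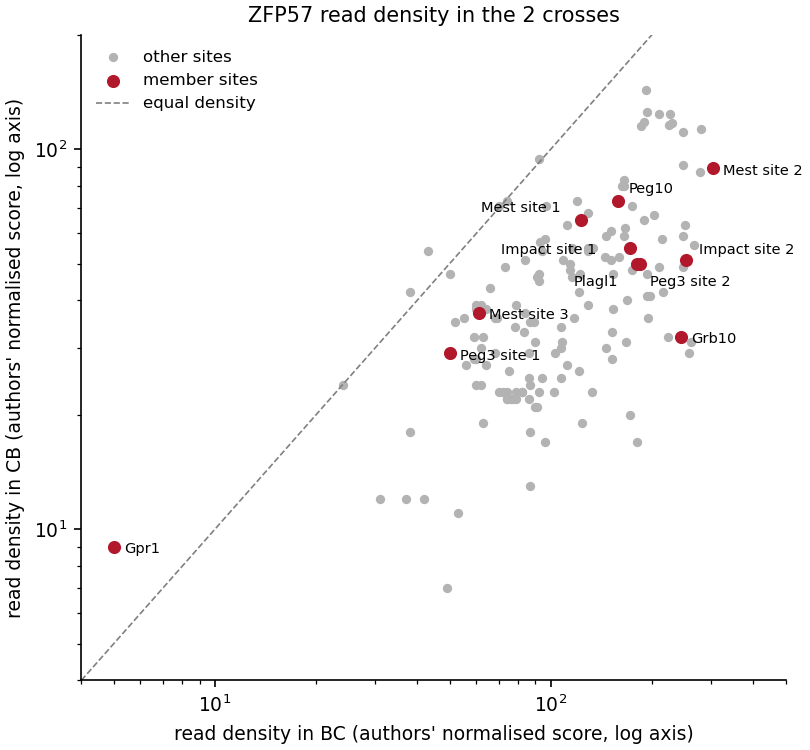
ZFP57 read density of each site in BC (horizontal) and CB (vertical), in the authors' normalised score on log axes, with the 11 member sites in red, the other sites in grey and equal density as a dashed line. Gpr1 lies alone at the lower left above the line, and Grb10 lies far to its right at 244 and 32.

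The authors also ran a site-specific allele assay (SNP pyrosequencing) on independent ChIP. By this assay the paper lists the maternal allele at Gpr1, Peg3, Plagl1 and Grb10. The published primers allowed the SNP used in the assay to be placed at 4 members. At Peg3 site 2 it fell in the site as C48T, counted on the plus strand from 1 at the start of the site with the BL6 base first, between the facing motifs and 2 bases from the nearer one. At Grb10 it was C126T, 16 bases from a motif, and the Cast base removes a CpG, leaving 24 of 25 in the site. At Gpr1 it was C141T, 50 bases from a motif. None of the 3 changed the number of TGCCGC hexamers. The Plagl1 assay SNP lay 133 bp beyond the end of the site. The deposited table counts 1 SNP in each of the Peg3 site 2, Grb10 and Plagl1 sites and 4 in Gpr1, and does not give their positions, so the SNP that sorted the ChIP reads at Plagl1 was not placed.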

How the data were processed

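The deposited table lists ZFP57 binding sites of 1 BC and 1 CB ChIP library on mm9 (NCBIM37). The authors used Bowtie, version not stated, to align reads of 40 nt against mm9 and against Cast sequence built from known SNPs, and kept unique alignments with at most 1 mismatch. They called peaks with MACS against the inputs, and kept the top 1% by rank and sites with binding by qPCR. By their methods they also passed over simple-repeat peaks and any with no motif, although some listed sites have a motif count of 0. The allele-specific read counts were deposited as raw counts per site, strain and cross. Density values in the table are a score, normalised by the authors for peak length and aligned reads, then rounded. The authors' ranks are in percent. The deposited p-values (Fisher's exact, by parent and by strain) and the overall call per site were not used. Allele-specific reads within all sites numbered 10541 in BC and 5904 in CB.

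Here maternal and paternal reads were taken by cross, and a two-sided Fisher's exact test was run at each site with reads, with Benjamini-Hochberg adjustment. DMRs with more than 2 sites entered the comparison within DMRs as 1 table. Shares carry 95% Wilson intervals, and a count of 0 is given the limit of 3 counts. Motifs were searched on both strands of mm9, starts and exons are those of GENCODE M1 on the same assembly, and RefSeq promoters are on GRCm38.p6 and used for their letters alone. Python 3.11, scipy 1.17.1, numpy 2.4.6, pysam 0.24.0 and matplotlib 3.10.9 were used, and the tests were tested on simulated data. Every member site is named. The members and lists were chosen with earlier results of these data known. In all, 25 alternatives were tried, 2 of them chosen after seeing the data.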

Additional observations from a re-analysis of the deposited data

Results flagged for a closer look

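The maternal share at Grb10 differed between the crosses by a test of the difference itself (two-sided Fisher's exact test, p adjusted over the 116 sites with reads = 0.00762), with 79 of 85 reads maternal in BC and 9 of 15 in CB. Over the alternatives for this comparison its p was 0.00230 unadjusted, 0.0299 adjusted over the 26 parental-origin sites, and 0.106 with read counts halved. The same site had the fifth largest ratio of BC to CB read density of all 158 sites, 7.63, and what part the lower CB signal has in the difference was not tested. By SNP pyrosequencing on independent ChIP, the paper lists the maternal allele at the Grb10 DMR.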

How the results depend on the processing

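Of the 25 alternatives, 21 kept their result within the limits set, which allow some change in a count. A change from 8 maternal-specific member sites to 9, 7 or 6 was within them. The maternal share of the members was 93.6% in BC reads, 93.0% in CB reads and 93.6% as a mean over DMRs. The number of maternal-specific member sites, 8, was 9 at p under 0.01 and at an adjusted p under 0.05, where Mest site 3 was added. It was 7 at p under 0.000001, without Grb10, and 6 with read counts halved, without Grb10 and Gpr1. With read counts halved, 0 member sites differed in maternal share between the crosses, in place of 1, since fewer reads enter the test. Of the 15 pairs of DMRs, 4 differed in CB reads alone in place of 0, where the cause was not tested. All 4 rest on the same 15 CB reads of Grb10. At an unadjusted p under 0.05, 1 pair differed, an alternative chosen after seeing the data. In place of 6 member sites in a promoter by the deposited feature, 7 were in one by the same limits on GENCODE M1 starts, and 10 lay within 1 kb of such a start. That change is of both the annotation and the limit. The median density ratio ranged from 3.13 to 3.60, and was 3.27 without Gpr1, an alternative also chosen after seeing the data. The number of allele-specific reads in the site limits Mest site 3, with 12, Gpr1, with 29, and Grb10 in CB, with 15. Mest site 1 and Peg10 give no allelic value.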
